A study of Mus musculus with 3 samples.

Results

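The 10 genes described here code for proteins of elastic fibres and of their microfibrils, and were read in RNA sequencing libraries of 3 kinds of cultured mouse cell. They are Eln, Fbn1, Fbn2, Fbln1, Fbln2, Fbln5, Efemp1, Efemp2, Mfap5 and Thsd4, and all 10 were found by symbol among the 18245 genes of the deposited table. The list was chosen from changes already known in these same libraries, Efemp1 for its level in the primary cells and Thsd4 for its level in the clone. Their levels and changes are therefore given as a description, without p-values and with standard errors worked back from the test statistic. A member that passed a threshold lends nothing to the choice that put it on the list.

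The study asked how cells grown from the adult epicardium, the outer sheet of the heart, relate to the epithelial cells of that sheet. CDC are cardiosphere-derived cells, which crawled out of pieces of ventricle epicardium, formed floating spheres and then grew as a fibroblast-like layer. CDC-EpiC is an epithelial clone that was picked from CDC cultures after 2 weeks with 10 uM SB-431542, which blocks the type I TGF-beta receptor. pEpiC are primary epicardial cells, released from the heart by enzymes. All came from C57BL/6 mice, for which the labels name no engineered allele, at 6 weeks of age for CDC and 6 to 8 weeks for pEpiC, and the methods give passage 3 for primary cultures of both but name a later passage in one account of the sequencing. Each kind has 3 libraries. The labels list 1 sample per kind and speak of 3 separate RNA samples, without saying whether these were separate animals or cultures, so any spread or p-value below is that between libraries, which may be technical. The CDC-EpiC libraries are of 1 clone and hold no spread between clones. CDC and pEpiC were isolated differently and grown in different media, and these differences cannot be told apart from the kind of cell. In these bulk libraries, fewer cells expressing a gene and less of its RNA per cell cannot be told apart either.

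An elastic fibre is a core of cross-linked elastin laid on a scaffold of microfibrils. Cells secrete tropoelastin, the product of Eln, as a soluble monomer, and fibrillins, the products of Fbn1 and Fbn2, as the main protein of the microfibrils. Short fibulins (Fbln5, Efemp1 and Efemp2) bring tropoelastin, lysyl oxidases and microfibrils together, and microfibrils also hold latent TGF-beta in place through its binding proteins. In the heart, elastic fibres lie in the epicardium, the valves and the walls of the coronary arteries.

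The libraries held 22008833 to 22756045 expected counts each. Levels are CPM, counts scaled to a common library size after TMM normalization, unless TPM, which is also scaled to transcript length, is named. The 10 genes together took 0.427% to 0.504% of the counts of CDC libraries, 0.115% to 0.129% of CDC-EpiC libraries and 0.748% to 0.823% of pEpiC libraries. Marker lists were read for other cells the cultures could hold. The summed level of 10 fibroblast markers, among them Mfap5, was 9349 to 12420 CPM in CDC, 6432 to 7954 in CDC-EpiC and 31230 to 33940 in pEpiC, the same order of kinds as in the summed level of the 10 elastic fibre genes. The sum is mostly collagen, and Col1a1 and Col3a1 were lower in the clone than in CDC, as was Lum. Col1a2 had a lower mean in the clone, with libraries that overlapped those of CDC. In CDC-EpiC, Dpt and Pi16 had at most 3 counts in every library, but Dcn (462 CPM in CDC, 1839 in CDC-EpiC), Pdgfra (29.0 and 60.9) and Tcf21 (12.3 and 27.9) were higher in the clone than in CDC. The summed level of 10 mesothelial markers, which check the epicardial label, was 463 to 519 CPM in pEpiC, 710 to 746 in CDC and 5957 to 6904 in CDC-EpiC, and no marker was at 3 counts or fewer in every library of a kind. The sum is mostly Upk3b, Upk1b and Lrrn4. Wt1, a transcription factor of the epicardium, was at 10.0 CPM in CDC, 119 in CDC-EpiC and 51.1 in pEpiC. The keratins Krt8 and Krt18 were low throughout but highest in pEpiC, at 2.76 and 2.03 CPM. A further keratin, Krt19, was lowest in pEpiC, at 35.4 CPM in CDC, 25.4 in CDC-EpiC and 1.22 in pEpiC. Also lowest in pEpiC were Upk3b (229, 2655 and 69.4 CPM in the same order), Upk1b (158, 1161 and 53.3) and Tbx18 (92.7, 56.4 and 49.2). The same held for Msln (52.1, 116 and 29.5) and Bnc1 (44.15, 195 and 34.0). Lrrn4, like Wt1, was lowest in CDC (102, 2121 and 200). Smooth muscle markers, whose cells also make elastic fibres, summed to 2148 to 2677 CPM in CDC, 865 to 1208 in CDC-EpiC and 1114 to 1150 in pEpiC. In the clone the largest part of the sum was Smtn, at 137, 632 and 129 CPM in the same order of kinds. Acta2 (1955, 352 and 547) and Tagln (260, 34.4 and 321) were lowest in the clone, as were Myh11, Cnn1, Actg2, Myocd, Lmod1 and Des. Synpo2 was alike in CDC and the clone. Macrophage markers summed to 72.7 to 74.6, 30.1 to 33.0 and 307 to 855 CPM in that order, with the highest value in pEpiC library 1. Of the 10 macrophage markers, 3 in CDC and 6 in CDC-EpiC had at most 3 counts in every library, Ptprc among them in both, while all were above that in pEpiC. Endothelial markers reached at most 25.9 CPM, in pEpiC. Cardiomyocyte markers reached 155 CPM in pEpiC, nearly all of it Tnnt2 (145 CPM), with Myh6, Myl2 and Pln at no more than 3 counts there. CDC libraries 1 and 2 stood apart in holding Myh6 (191, 190 and 0 expected counts in libraries 1 to 3) and Myl2 (25.3, 27 and 1). Leaving out any 1 CDC library changed neither the call nor the direction of a member. Each such fit kept library 1 or 2, and a fit without both was not run, so the part of this difference stays unknown. The part of these other cells in the levels below was not tested.

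Most genes differed between any pair of these kinds. Genes were called where the quasi-likelihood test of edgeR gave a Benjamini-Hochberg adjusted p of 0.05 or less, and 78.3% of 13526 genes tested were called in pEpiC vs CDC (39.8% higher in pEpiC, 38.5% lower). In CDC-EpiC vs CDC, 68.8% of 12976 genes were called (34.2% higher in CDC-EpiC, 34.6% lower), and in CDC-EpiC vs pEpiC 81.9% of 13547 (40.3% higher in CDC-EpiC, 41.5% lower). The libraries of the kinds did not overlap for 81.5%, 72.1% and 84% of genes. Beside this background, 10 of 10 members were called in pEpiC vs CDC (8 higher, 2 lower), 9 of 9 tested in CDC-EpiC vs CDC (2 higher, 7 lower, Efemp1 being below the filter) and 10 of 10 in CDC-EpiC vs pEpiC (2 higher, 8 lower). Libraries did not overlap for 10, 9 and 9 of the members tested. The list's choice used these contrasts, so nothing is read from the counts. The median log2 change of the members was 1.55, -1.23 and -2.67 in the 3 comparisons, and that of all genes tested was 0.02, 0.00 and -0.02. The comparisons share libraries, so their values stand side by side and are not independent.

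pEpiC had the highest mean of 7 members (Eln, Fbn1, Fbln1, Fbln2, Fbln5, Efemp1 and Mfap5), CDC of 2 (Fbn2 and Efemp2) and CDC-EpiC of 1 (Thsd4). CDC-EpiC had the lowest mean of 6 members, and CDC of 3 (Eln, Efemp1 and Thsd4). pEpiC was lowest for Efemp2, with libraries that overlapped those of the clone.

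**Figure D1:**
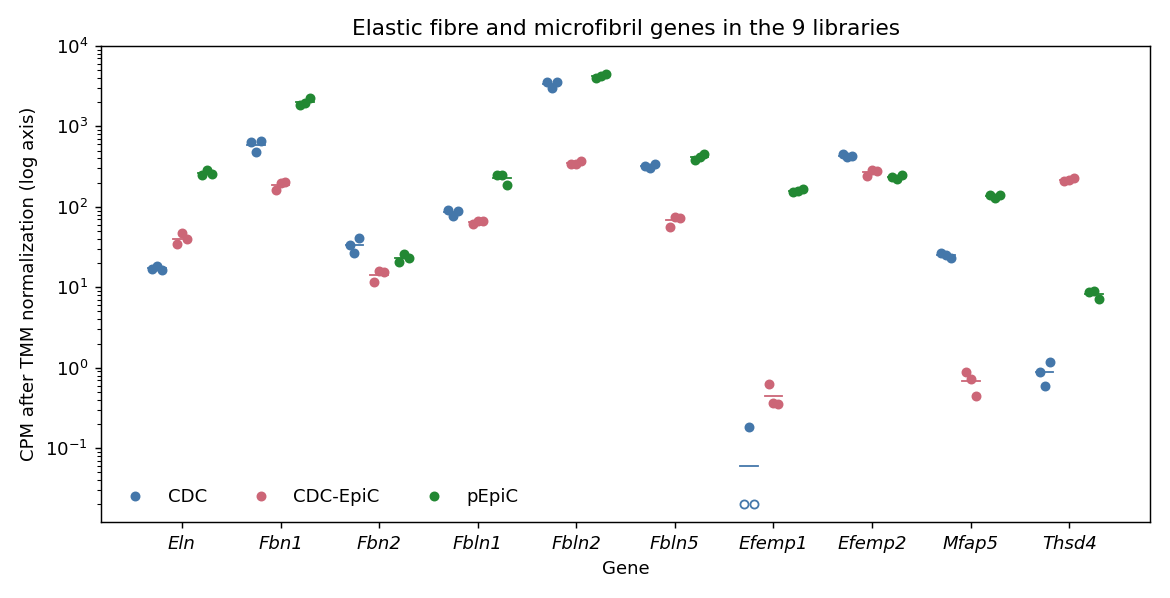
CPM after TMM normalization (log axis) of the 10 genes in each of 9 libraries, with CDC in blue, CDC-EpiC in red and pEpiC in green. Lines are means of 3 libraries, and open circles mark the 2 CDC libraries with 0 counts of Efemp1, set at the foot of the axis. The widest gaps are in Efemp1, high in pEpiC alone at 154 to 165 CPM, and Thsd4, high in CDC-EpiC at 208 to 226 CPM.

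Eln, on the minus strand at chr5:134702595-134747368 (GRCm38), was lowest in CDC, intermediate in the clone and highest in the primary cells. Its level was 16.8, 18.5 and 16.4 CPM in the CDC libraries, 34.6, 46.7 and 39.3 in CDC-EpiC and 247, 289 and 256 in pEpiC. No libraries of different kinds overlapped. The log2 change was 3.89 ± 0.09 (SE) in pEpiC vs CDC, a 14.8-fold difference, and 1.21 ± 0.11 in CDC-EpiC vs CDC. CDC-EpiC lay 2.72 ± 0.10 log2 units below pEpiC, so that the clone stood above its parent culture and below the primary cells. Of its 8098 exonic bases, 267 are shared with Gm30003 on the other strand, and whether reads were counted by strand is not given in the sources used here.

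Fibrillin-1 and fibrillin-2 moved unequally. Fbn1, which codes for the main fibrillin of adult tissue, was measured at 637, 475 and 659 CPM in CDC, 164, 200.2 and 202 in CDC-EpiC and 1862, 1963 and 2230.4 in pEpiC. All pEpiC libraries were above all CDC libraries, and all CDC-EpiC libraries were below them. The log2 change was 1.73 ± 0.12 in pEpiC vs CDC, -1.65 ± 0.12 in CDC-EpiC vs CDC and -3.42 ± 0.10 in CDC-EpiC vs pEpiC, the last a 10.7-fold difference. The gene lies on the minus strand at chr2:125300594-125506485, and 2442 of its 12128 exonic bases are shared with Gm9913 on the other strand.

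Fbn2, whose product is made mostly during development, was measured at 33.1, 26.6 and 41.2 CPM in CDC, 11.6, 16.1 and 15.5 in CDC-EpiC and 20.8, 25.9 and 22.8 in pEpiC. In CPM, CDC was highest, though its lowest library stood just above the highest of pEpiC, and CDC-EpiC was lowest. The log2 change was -0.58 ± 0.14 in pEpiC vs CDC and -1.23 ± 0.15 in CDC-EpiC vs CDC. With an offset for transcript length, the change in pEpiC vs CDC was -1.32 ± 0.11, whereas on TPM, where the median of all genes was 0.41, it was -0.06 and was not called. Between CDC-EpiC and pEpiC the change was -0.69 ± 0.12, and 0.19 ± 0.12 with the length offset, so no direction is given for it. Fbn1 stood at 16.7 to 20.1 times the TPM of Fbn2 in CDC libraries, 13.1 to 14.7 times in CDC-EpiC and 79.4 to 102 times in pEpiC, so the fibrillin ratio of the primary cells did not overlap that of the other kinds.

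Of the longer fibulins, Fbln2 took the larger share of counts, and per length (TPM) it was the highest member in CDC and pEpiC but stood below Efemp2 in CDC-EpiC. Its product, fibulin-2, binds fibrillin and the elastin core and is strongly made where cells turn into mesenchyme in the developing heart. Its libraries gave 3540.5, 2984 and 3594 CPM in CDC, 338, 336 and 369 in CDC-EpiC and 3990.5, 4184 and 4434.5 in pEpiC. The clone was far below both other kinds, with log2 changes of -3.28 ± 0.10 against CDC (9.74-fold) and -3.60 ± 0.07 against pEpiC (12.1-fold). The difference between pEpiC and CDC was small, 0.27 ± 0.08, lost its call without pEpiC library 3 (0.23), and was -0.03 ± 0.06 with an offset for transcript length.

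Fbln1 codes for fibulin-1, a protein of basement membranes and of the elastin core. Its level was 91.4, 76.9 and 88.3 CPM in CDC, 61.4, 67.4 and 67.5 in CDC-EpiC and 249.6, 250.4 and 186 in pEpiC. pEpiC was highest, with its library 3 below the other two, and CDC-EpiC lay a little under CDC. The log2 change was 1.38 ± 0.12 in pEpiC vs CDC and -0.39 ± 0.08 in CDC-EpiC vs CDC, the smallest change of any member in the latter comparison. Fbln2 therefore exceeded Fbln1 by 23.4 to 24.8 times per length (TPM) in CDC and 10.1 to 15.1 times in pEpiC, against 3.00 to 3.37 times in the clone.

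The short fibulins, which guide the assembly of the elastin core, took separate courses. Fbln5 codes for fibulin-5, which ties tropoelastin to microfibrils and to integrins on the cell. The libraries gave 320.15, 304 and 336 CPM in CDC, 56.9, 75.4 and 72.6 in CDC-EpiC and 381, 419 and 454 in pEpiC. The clone was far below both other kinds, by 2.23 ± 0.10 log2 units against CDC and 2.62 ± 0.11 against pEpiC, while pEpiC was 0.34 ± 0.08 above CDC.

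Efemp2 codes for fibulin-4, which brings lysyl oxidase to tropoelastin. It was measured at 457, 416 and 428 CPM in CDC, 239, 287 and 279 in CDC-EpiC and 233, 225 and 250.4 in pEpiC. CDC was highest and did not overlap the others. The log2 change was -0.92 ± 0.07 in pEpiC vs CDC and -0.70 ± 0.09 in CDC-EpiC vs CDC. Between the clone and the primary cells the change was 0.18 ± 0.07, with overlapping libraries, and it turned to -0.19 on TPM and -0.10 ± 0.07 with a length offset, so no direction is given for it. The call of that difference was also lost when pEpiC library 1 or 2, or CDC-EpiC library 2 or 3, was left out. Per length, Efemp2 stood at 2.03 to 2.28 times Fbln5 in CDC, 6.13 to 6.74 times in CDC-EpiC and 0.854 to 0.970 times in pEpiC.

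Efemp1 codes for fibulin-3, the short fibulin that binds tropoelastin only weakly and is found in basement membranes and fascia. It held 0, 4 and 0 expected counts in the CDC libraries, 14, 8 and 8 in CDC-EpiC and 3550, 3634 and 3780 in pEpiC. It was thus near 0 in both cultures of CDC origin and at 159 ± 5.84 CPM (SD, n = 3) in the primary cells. The depth-scaled ratio of counts was 2746 in pEpiC over CDC (95% exact interval 1072 to 10080, counting error only) and 360 in pEpiC over CDC-EpiC (252 to 535). Between the clone and CDC it was 7.62 (2.68 to 29.8), on 30 counts against 4, and Efemp1 was not tested there because its counts were below the filter. At 193 ± 7.37 TPM in pEpiC, its level per length overlapped those of Fbln1 and Eln there.

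The promoter of Efemp1 is shown because this gene sets the primary cells apart. The window runs from 250 bases before to 50 bases after the start, at chr11:28852955-28853254 on the plus strand (RefSeq, GRCm38.p6). Capitals mark its only match among 5 motifs searched on both strands. These were TGANTCA (a loose form of the AP-1 motif), GGAATG (TEAD), CAGACA (SMAD), CACGTG (E box) and TATAAA (the box of core promoters). The AP-1 consensus has C or G at N, whereas the match here has A, so it is not a consensus AP-1 string. TGANTCA was held by 7.81% of 32851 RefSeq promoter windows of the same length, GGAATG by 14.7%, CAGACA by 21%, CACGTG by 7.15% and TATAAA by 13.6%.
Efemp1: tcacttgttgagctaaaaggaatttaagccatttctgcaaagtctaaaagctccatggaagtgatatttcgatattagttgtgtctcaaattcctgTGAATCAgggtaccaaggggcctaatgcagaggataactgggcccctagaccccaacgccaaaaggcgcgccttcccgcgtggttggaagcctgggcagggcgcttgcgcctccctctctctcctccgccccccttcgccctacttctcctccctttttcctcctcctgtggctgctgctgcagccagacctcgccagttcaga
The window has 54.3% GC, against a median of 52.7% over all promoters. Promoter windows were matched for 7 of the 10 members. CAGACA, absent from the Efemp1 window, was held by both windows of Fbln1, which hold CACGTG too and overlap each other. It was held by 1 of 2 windows each of Fbln5 and Thsd4, while the windows of Fbn1, Fbln2 and Efemp2 held none of the 5. A match is a string of letters, not a measured binding site.

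Mfap5 codes for a small glycoprotein (MAGP-2) that sits on fibrillin microfibrils. It was measured at 26.9, 25.3 and 23.2 CPM in CDC, 0.884, 0.726 and 0.443 in CDC-EpiC and 141, 129 and 139 in pEpiC. The clone held only 10.0 to 20.1 expected counts per library. The log2 change was 2.39 ± 0.07 in pEpiC vs CDC, -5.19 ± 0.16 in CDC-EpiC vs CDC and -7.63 ± 0.12 in CDC-EpiC vs pEpiC, so the clone departed further from CDC in this gene than in any other member that fell. Mfap5 is on the fibroblast marker list as well. Of the others on it, Dcn, Pdgfra and Tcf21 were higher in the clone than in CDC. Col1a1, Col3a1, Lum and Dpt were lower, such as Col3a1 (1276 CPM in CDC, 206 in CDC-EpiC) and Lum (9.18 and 0.445). Col1a2 (3915 and 3341) and Pi16 (0.153 and 0.0443) had lower means in the clone, but with overlapping libraries, and Pi16 was near 0 in both.

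Thsd4 codes for ADAMTSL6, a secreted protein that binds fibrillin-1 and promotes microfibril assembly. It was measured at 0.876, 0.590 and 1.18 CPM in CDC, 208, 218 and 226 in CDC-EpiC and 8.67, 9.10 and 7.22 in pEpiC. In counts, CDC held 13.1 to 26.1, pEpiC 165 to 209 and the clone 4713 to 5101. No kinds overlapped, and the clone stood above its parent culture by 7.93 ± 0.14 log2 units (244-fold) and above the primary cells by 4.70 ± 0.08 (26.0-fold), or by 5.46 ± 0.08 with a length offset. The log2 change in pEpiC vs CDC was 3.19 ± 0.22.

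The upstream promoter window of Thsd4 is shown as that of the gene which sets the clone apart. RefSeq gives 2 windows, and this one, at chr9:60510986-60511285 on the minus strand (GRCm38.p6), covers the start of Thsd4-202, a coding transcript of 8796 bases. The other covers the start of Thsd4-201, of 4816 bases. The length implied by the authors' counts and FPKM was 8473 ± 50.2 bases in the clone (SD, n = 3). Such a length can fall short of the annotated one, as for Eln, at 3601 bases in the clone against 3853 for its 1 coding transcript. It therefore does not tell Thsd4-202 from Thsd4-206, of 8522 bases, which starts outside both windows, nor which start was used. Capitals mark CAGACA, from 23 bases after the start.
Thsd4: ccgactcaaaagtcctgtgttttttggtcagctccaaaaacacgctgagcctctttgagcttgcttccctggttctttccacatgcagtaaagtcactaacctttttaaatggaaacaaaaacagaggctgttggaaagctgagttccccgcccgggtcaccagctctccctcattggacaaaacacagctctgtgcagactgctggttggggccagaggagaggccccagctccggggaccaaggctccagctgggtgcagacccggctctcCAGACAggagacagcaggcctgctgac
This window has 55.0% GC, as has the downstream window, which held none of the 5 motifs.

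Scaled to length, the 10 genes summed to 2281 ± 246 TPM in CDC, 668 ± 56.4 in CDC-EpiC and 4411 ± 221 in pEpiC (SD, n = 3). Fbln2 made up 59.3% of the sum in CDC and 52.2% in pEpiC, whereas in CDC-EpiC the largest share was Efemp2, at 47.6%. Without Fbln2 the sums were 929 ± 73.2, 522 ± 50.2 and 2107 ± 86.8 TPM, in the same order of kinds. In CDC, the order of level ran from Fbln2 (1352 TPM) through Efemp2 (488), Fbln5 (226), Fbn1 (105), Fbln1 (56.5), Mfap5 (39.0), Eln (8.49) and Fbn2 (5.71) to Thsd4 (0.183) and Efemp1 (0.0567), and only the last 2 overlapped. In CDC-EpiC it ran from Efemp2 (318) through Fbln2 (147), Fbln5 (50.4), Thsd4 (47.8), Fbln1 (45.6), Fbn1 (35.1), Eln (20.8), Fbn2 (2.55) and Mfap5 (0.980) to Efemp1 (0.447). There Fbln5, Thsd4 and Fbln1 overlapped their neighbours. In pEpiC it ran from Fbln2 (2304) through Fbn1 (489), Fbln5 (404), Efemp2 (362), Mfap5 (277), Fbln1 (197), Efemp1 (193), Eln (176) and Fbn2 (5.37) to Thsd4 (2.37). Fbln5 overlapped Efemp2, and Fbln1, Efemp1 and Eln overlapped in turn. FPKM gave the same orders.

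**Figure D2:**
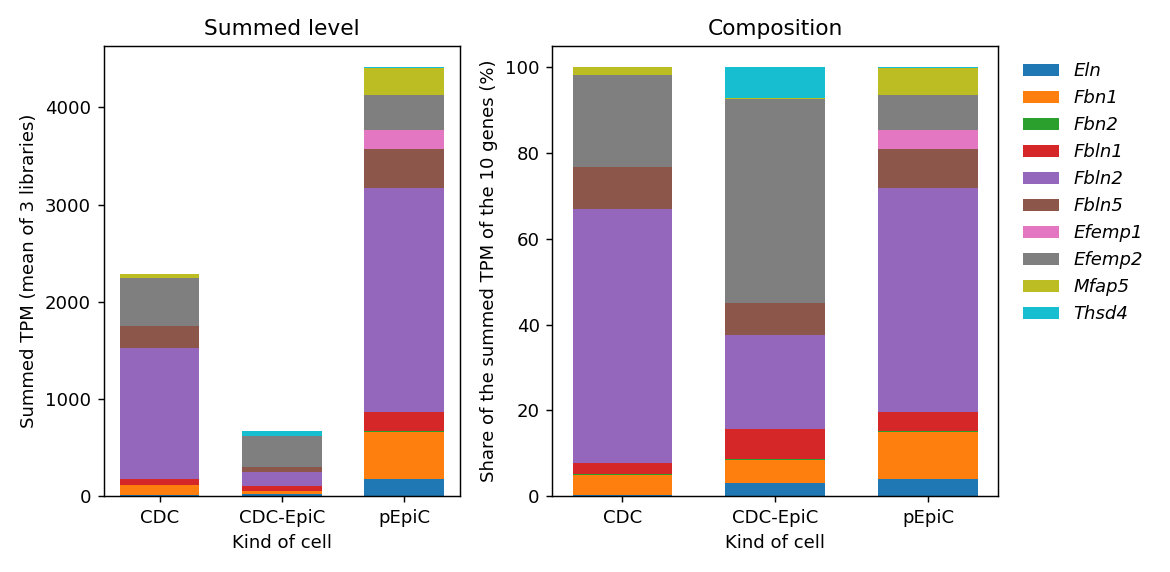
Left, mean TPM of the 10 genes stacked for each kind (3 libraries each). Right, the same as a share of their sum in percent, in which Fbln2 takes 59.3% of CDC and 52.2% of pEpiC, and Efemp2 takes 47.6% of CDC-EpiC.

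Transcript length moved with every comparison that included pEpiC. Across genes, the slope of the log2 change on the log2 of length was 0.44 in pEpiC vs CDC and -0.435 in CDC-EpiC vs pEpiC, but 0.00667 in CDC-EpiC vs CDC. Genes of at least 8000 bases had a median log2 change of 0.65 in pEpiC vs CDC, and genes of 1000 to 2000 bases one of -0.48. The fibrillins and Thsd4 are in the longer range and Efemp2 and Mfap5 in the shorter. With a length offset, pEpiC vs CDC became 1.01 ± 0.08 for Fbn1, -1.32 ± 0.11 for Fbn2 and 2.55 ± 0.20 for Thsd4, and 2.99 ± 0.06 for Mfap5. Eln, at 3.71 ± 0.08, and Fbln1, at 1.36 ± 0.11, moved little. In CDC-EpiC vs pEpiC, Fbn1 went from -3.42 to -2.57 and Mfap5 from -7.63 to -8.10. On TPM, which fixes the sum of each library, the median of all genes was 0.41 in pEpiC vs CDC with 74.5% of calls higher, against 50.8% higher on TMM, and -0.33 in CDC-EpiC vs pEpiC with 32.9% higher, against 49.3%. The cause of this trend was not tested.

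**Figure D3:**
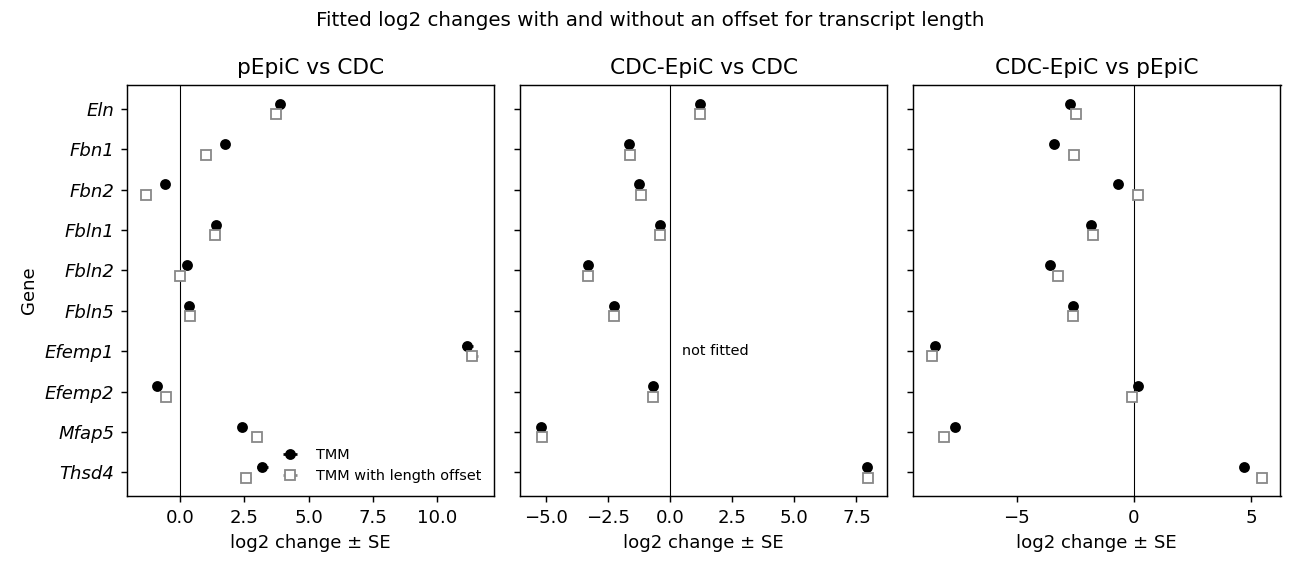
Fitted log2 change ± SE of each gene in the 3 comparisons, with TMM alone (black circles) and with an added offset for transcript length (open squares). In CDC-EpiC vs CDC the values of each gene nearly coincide, and Efemp1 was not fitted there. In the comparisons with pEpiC those of Fbn1, Fbn2, Fbln2, Efemp2, Mfap5 and Thsd4 are set apart.

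Other genes of elastic fibre assembly were taken from 7 lists of 68 names, 65 of which are in the table. In pEpiC vs CDC, 31 of the 57 tested were higher and 15 lower. In CDC-EpiC vs CDC, 16 of 54 were higher and 33 lower, and in CDC-EpiC vs pEpiC 11 of 58 were higher and 41 lower. The shares called, 80.7%, 90.7% and 89.7%, are read against the 78.3%, 68.8% and 81.9% of all genes. Of all genes, 39.8%, 34.2% and 40.3% were called higher and 38.5%, 34.6% and 41.5% lower in these comparisons. The counts for each list below are a description to be set beside these shares. The median log2 change was 0.26, -0.39 and -0.96, beside 0.02, 0.00 and -0.02 for all genes tested. On TPM or with a length offset, 8 of the 46 called in pEpiC vs CDC and 5 of the 52 called in CDC-EpiC vs pEpiC had the other sign, but 0 of the 49 called in CDC-EpiC vs CDC.

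Of 14 microfibril-associated proteins, latent TGF-beta binding proteins and other fibulins, 4 were higher and 3 lower among 11 tested in pEpiC vs CDC. Mfap4, whose product binds tropoelastin and fibrillin-1, rose from 1.55 ± 0.64 CPM in CDC to 468 ± 51.4 in pEpiC (SD, n = 3), with a log2 change of 8.19 ± 0.19 (adjusted p = 3.64e-10, edgeR). In the clone Mfap4 was at 0.239 ± 0.0955 CPM, 10.9 log2 units below pEpiC (adjusted p = 3.45e-11, edgeR). Ltbp1, which anchors latent TGF-beta to microfibrils, was at 71.7 ± 5.39 CPM in CDC and fell by 2.70 ± 0.10 log2 units in pEpiC (adjusted p = 7.04e-09) and by 3.77 ± 0.10 in CDC-EpiC (adjusted p = 1.07e-13). In CDC-EpiC vs CDC 4 of 12 tested were higher and 6 lower, and in CDC-EpiC vs pEpiC 3 and 8. Hmcn1, which codes for the large basement membrane protein hemicentin-1, rose in the clone from 2.25 ± 0.36 to 28.4 ± 2.05 CPM (log2 change 3.65 ± 0.12, adjusted p = 1.42e-12) and was also above pEpiC by 3.59 ± 0.10 (adjusted p = 8.11e-10). Ltbp4, whose product is needed for elastic fibre assembly, was higher in the clone than in pEpiC by 1.01 ± 0.11 (adjusted p = 1.01e-05).

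Among 9 ADAMTS-like and fibrillin-binding ADAMTS genes, the relatives of Thsd4, 6 were higher and 2 lower of 8 tested in pEpiC vs CDC. In CDC-EpiC vs CDC, 1 of 6 was higher and 4 were lower, and in CDC-EpiC vs pEpiC 7 of 8 were lower. Adamtsl2, which binds fibrillin-1 and the latent TGF-beta complex, held 2 to 7 counts in CDC, 1 to 6 in CDC-EpiC and 2221 to 2337 in pEpiC. Its log2 change was 8.90 ± 0.15 in pEpiC vs CDC (adjusted p = 9.09e-11) and -9.21 ± 0.15 in CDC-EpiC vs pEpiC (adjusted p = 3.45e-11). Adamtsl3 fell from 124 ± 14.9 CPM in CDC to 10.9 ± 2.06 in CDC-EpiC, by 3.51 ± 0.13 log2 units (adjusted p = 2.57e-12).

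The 5 lysyl oxidases, which cross-link tropoelastin and collagen, did not move together, with 2 higher and 3 lower in pEpiC vs CDC, 2 higher and 3 lower in CDC-EpiC vs CDC, and 4 of 5 lower in CDC-EpiC vs pEpiC. Lox was the most counted of them in every kind, at 3260 ± 321 CPM in CDC, 2041 ± 128 in CDC-EpiC and 2599 ± 112 in pEpiC, and fell by 0.68 ± 0.10 log2 units in CDC-EpiC vs CDC (adjusted p = 1.47e-05, edgeR). In pEpiC vs CDC its change was -0.37 ± 0.08 (adjusted p = 0.00132, edgeR), which was 0.14 on TPM. Loxl1, whose product is needed for elastin renewal in adults, was at 331 ± 9.17, 443 ± 46.3 and 925 ± 53.2 CPM in that order, and rose by 1.44 ± 0.07 in pEpiC vs CDC (adjusted p = 3.03e-08) and by 0.42 ± 0.09 in CDC-EpiC vs CDC (adjusted p = 0.000602). The change of Loxl2 in pEpiC vs CDC was 0.26 ± 0.09 (adjusted p = 0.0255, edgeR), with overlapping libraries, and was -0.15 with a length offset. That call was also lost without CDC library 1 or 2 or pEpiC library 2 or 3 (0.18 to 0.25). Loxl3 fell by 1.01 ± 0.06 in pEpiC and 1.35 ± 0.07 in CDC-EpiC against CDC. Loxl4 fell by 3.13 ± 0.10 in CDC-EpiC vs CDC (adjusted p = 1.2e-12), whereas its change of -0.30 ± 0.08 in pEpiC vs CDC, with overlapping libraries, was 0.19 on TPM.

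Of 8 measured genes that modify or cleave EGF-domain proteins such as fibrillins and fibulins, 5 were higher and 1 lower in pEpiC vs CDC. In CDC-EpiC, 1 was higher and 7 lower against CDC, and all 8 were lower against pEpiC. Of 12 receptor genes, 6 were higher and 1 lower among 11 tested in pEpiC vs CDC, 5 higher and 5 lower in CDC-EpiC vs CDC, and 5 higher and 5 lower in CDC-EpiC vs pEpiC. Itgb5, the beta chain of an integrin that binds fibrillin and fibulin-5, was at 243 ± 6.997 CPM in CDC, 19.0 ± 0.311 in CDC-EpiC and 644 ± 10.6 in pEpiC, with a log2 change of -3.68 ± 0.08 in CDC-EpiC vs CDC (adjusted p = 1.89e-14, edgeR). Sdc4, a cell surface proteoglycan, was highest in the clone at 692 ± 110 CPM, against 349 ± 25.6 in CDC and 147 ± 10.4 in pEpiC. Itgb8, the beta chain of an integrin that activates TGF-beta, and Glb1, whose splice form is the elastin binding protein, were higher in the clone than in CDC by 1.15 ± 0.13 and 1.26 ± 0.08 (adjusted p = 1.56e-06 and 2.36e-09, edgeR).

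Genes for elastin-degrading enzymes mostly had their highest mean in the primary cells. In pEpiC vs CDC 7 of 8 tested were called higher, and in CDC-EpiC vs pEpiC 7 of 8 lower. The share of the list called was 87.5% in both, beside 78.3% and 81.9% of all genes. Of all genes, 39.8% were called higher in the former comparison and 41.5% lower in the latter. In CDC-EpiC vs CDC, 1 was higher and 4 lower of 6. Mmp2, a gelatinase that also cleaves elastin, was at 12.8 ± 1.47 CPM in CDC, 2.19 ± 0.164 in CDC-EpiC and 1046 ± 43.7 in pEpiC, a log2 change of 6.30 ± 0.10 in pEpiC vs CDC (adjusted p = 5.9e-11). Ctsk, cathepsin K, fell by 3.37 ± 0.13 in CDC-EpiC vs CDC (adjusted p = 3.92e-12). Mmp12, the macrophage elastase, had at most 3 counts in every library of CDC and CDC-EpiC and 726, 492 and 627 in pEpiC, at least 201.4-fold and 198.3-fold higher at a floor of 3 counts per library. Ctss, cathepsin S, had at most 1 count per library in CDC and CDC-EpiC and 857, 390 and 436 in pEpiC, at least 183.5-fold and 180.7-fold higher. Macrophage markers summed to 855, 336 and 307 CPM in the same pEpiC libraries, so that Ctss and these markers were both highest in library 1. Their part in Ctss and Mmp12 was not tested.

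Of 7 protease inhibitor genes, 1 was higher and 5 lower of 6 tested in pEpiC vs CDC, 2 higher and 4 lower in CDC-EpiC vs CDC, and 3 higher and 2 lower in CDC-EpiC vs pEpiC. Timp1 and Timp3, inhibitors of metalloproteinases, fell in pEpiC vs CDC by 2.18 ± 0.08 and 1.15 ± 0.09 log2 units (adjusted p = 5.69e-09 and 7.98e-07, edgeR). Slpi, an inhibitor of neutrophil elastase, was at 21.6 ± 1.18 CPM in CDC-EpiC, 1.70 ± 0.354 in CDC and 0.669 ± 0.258 in pEpiC, and was higher in the clone by 3.66 ± 0.14 against CDC and 5.004 ± 0.18 against pEpiC (adjusted p = 4.21e-12 and 3.77e-09, edgeR).

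**Figure D4:**
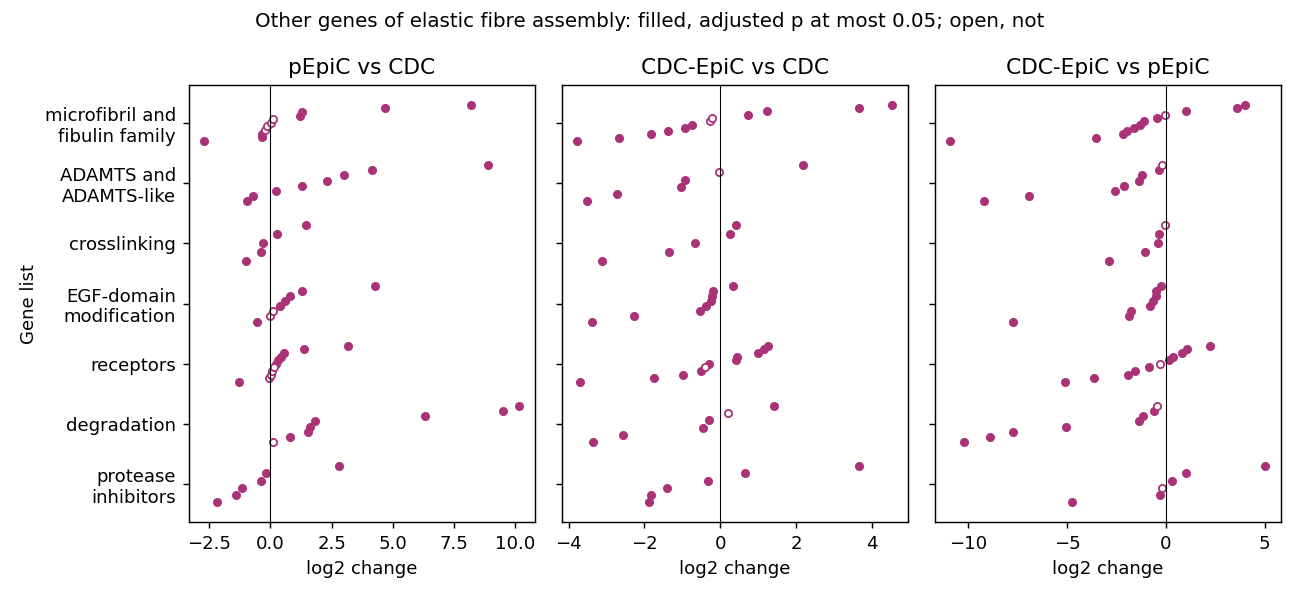
Fitted log2 change of each tested gene of the 7 lists of other elastic fibre genes, a row of points per list and a panel per comparison. Filled points have an adjusted p of at most 0.05, and in CDC-EpiC vs pEpiC 41 of them lie left of 0 and 11 right of it.

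For Eln, Efemp1 and Thsd4, 10072 genes were ranked by how closely their pattern over the 9 libraries followed that of the member, as the root mean square difference in centred log2(CPM + 1). The libraries share kinds and depth, so this is a description. The 1 added to each CPM shrinks the differences of genes at low levels, so a near pattern need not mean a like fold change. An example is 1500015O10Rik, at 0.379, 2.03 and 18.4 CPM in CDC, CDC-EpiC and pEpiC. Among the 3 nearest to Eln were Fxyd1 (0.148) and 1500015O10Rik (0.151), both at lower levels, with Fxyd1 at 1.17, 2.98 and 28.6 CPM in CDC, CDC-EpiC and pEpiC. Nearest to Efemp1 were Abca8a (0.301), Adamtsl2 (0.384) and Adgrd1 (0.471). Abca8a was at 1.21, 1.32 and 209.6 CPM in the 3 kinds. Among the 3 nearest to Thsd4 were Il18 (0.864) and Megf6 (0.874), with Il18 at 1.23, 69.4 and 2.44 CPM, in the same order of kinds as Thsd4.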

How the data were processed

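RNA of CDC, CDC-EpiC and pEpiC was selected on oligo(dT) beads and sequenced from both ends for 100 bases (BGISEQ-500). The authors deposited, for 3 libraries per kind, expected counts per gene, which need not be whole, and FPKM and TPM, both scaled to transcript length. The submitters' processing notes name HISAT2 2.0.4, Bowtie2 2.2.5, RSEM 1.2.12, DESeq2 1.4.5 and the build mm10. The annotation and the use of strand are not given in the sources used here. The authors' columns of means per kind were not used.

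Expected counts were rounded. For each pair of kinds, 6 libraries were fitted alone in edgeR 4.0.16 (R 4.3.3) after filterByExpr (minimum count 10, minimum total 15) with TMM normalization, glmQLFit and glmQLFTest, with Benjamini-Hochberg adjustment over all genes tested and a threshold of 0.05. The procedure was tested on simulated counts in which few genes changed. Most genes were called in the real comparisons, so the simulation does not cover that setting. A kind with at most 3 counts in every library was taken as at the floor, and folds against it are bounds. The exact interval of a count ratio (95%) covers counting error only. The SE of a log2 change is its absolute value over the square root of the F statistic of glmQLFTest. It is not an SE estimated by the fit, and it can understate the error of large changes that rest on few counts. The alternatives were DESeq2 1.42.0, RLE normalization, other filters, 1 fit of all libraries, limma 3.58.1 on log2(TPM + 1), log2(TPM + 0.1) and log2(FPKM + 1), a length offset, the library number as a block, and leaving out each library. Replicate libraries differed by 4.89 to 23.0 in chi-square over its degrees of freedom, more than sampling of reads allows.

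The members, gene lists and alternatives were chosen with earlier results of these data known. All 10 members are named. Of 7 pathway lists (microfibril-associated, ADAMTS-like, crosslinking, EGF-domain modification, receptors, degradation and protease inhibitors), the up to 5 genes with the largest change per comparison and direction were eligible, among those past the threshold, without overlap and reaching 10 CPM as the mean of the higher kind, and a list of 5 could be named whole. For Eln, Efemp1 and Thsd4, the 3 genes nearest in pattern were eligible, some of which are not reported here. Gene positions and promoters are from RefSeq (GRCm38.p6) and exons and transcripts from GENCODE M21. Python 3.11.15 with pandas 2.3.3, NumPy 2.4.6, SciPy 1.17.1 and matplotlib 3.10.9 was used.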

Additional observations from a re-analysis of the deposited data

How the results depend on the processing

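Of 462 alternatives for the log2 changes of the 10 genes, 448 kept direction and side of the threshold, 9 lost the threshold and 5 reversed. The reversals were Fbln2 in pEpiC vs CDC with a length offset (-0.0277), Fbn2 in CDC-EpiC vs pEpiC with a length offset (0.19), and Efemp2 in CDC-EpiC vs pEpiC with a length offset (-0.10), with log2(TPM + 1) (-0.19) and with log2(TPM + 0.1) (-0.19). The threshold was also lost for Fbn2 in pEpiC vs CDC on both TPM scales (-0.06), for Fbln2 in pEpiC vs CDC without pEpiC library 3 (0.23), and for Efemp2 in CDC-EpiC vs pEpiC under RLE normalization (0.16), the stricter filter (0.14) and without each of 4 libraries (0.14 to 0.17). The cause of these changes was not tested. For the other genes named, 660 of 681 alternatives kept direction and call, and the rest were in the lysyl oxidases, with 10 calls lost, 2 gained and 9 directions reversed. The reversals were, in pEpiC vs CDC, Lox on log2(TPM + 1) (0.1359) and log2(TPM + 0.1) (0.136), Loxl4 on the same scales (0.1927 and 0.205) and Loxl2 with a length offset (-0.1518), and, in CDC-EpiC vs pEpiC, Lox (0.0676) and Loxl2 (0.4488) with a length offset and Loxl2, which was not called, without pEpiC library 3 or CDC-EpiC library 1 (from -0.1198 to 0.0322 over the libraries left out). The call of Loxl2 in CDC-EpiC vs CDC was lost without each of 4 libraries (0.18 to 0.26). None of 144 alternatives moved a count of calls by 1.5 times.

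With the library number as a replicate block, 10604 genes were called in pEpiC vs CDC, 8831 in CDC-EpiC vs CDC and 11096 in CDC-EpiC vs pEpiC, against 10593, 8928 and 11091 without it. Deviations of same-numbered libraries correlated at -0.05 to 0.16, so the numbers were not taken as pairs. With 3 libraries per kind, values near the floor, such as Efemp1 in CDC, rest on few counts.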

Other observations

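The transcript length implied by the authors' expected counts and FPKM, a measure chosen after seeing the data, differed between kinds for Fbln1 and Mfap5. For Fbln1 it was 2680 ± 13.7 bases in CDC, 2671 ± 27.4 in CDC-EpiC and 2802 ± 10.9 in pEpiC (SD, n = 3), with no overlap between pEpiC and the others. GENCODE M21 lists coding transcripts of 2273 and 3659 bases for this gene, Fbln1-202 and Fbln1-201, though an implied length can fall short of the listed one. The implied length was 4.56% greater in pEpiC than in CDC, and 5.79% of 6907 genes moved as much. For Mfap5 it was 1138 ± 20.9 bases in CDC and 1190 ± 5.20 in pEpiC, 4.54% greater, and 5.81% of genes moved as much. In the clone, where Mfap5 had few counts, it was 1308 ± 56.4.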
